A study of Arabidopsis thaliana and Nicotiana tabacum with 16 samples.

Results

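The chloroplast ATP synthase is built from 9 different subunits, and their 9 genes were followed through 14 Ribo-seq libraries of Arabidopsis thaliana. The genes were taken by identifier from the 27628 genes of the deposited counts. The chloroplast genome encodes 6 of them, namely atpA (ATCG00120), atpB (ATCG00480), atpE (ATCG00470), atpF (ATCG00130), atpH (ATCG00140) and atpI (ATCG00150). The nuclear genome encodes 3, namely ATPC1 (AT4G04640), ATPD (AT4G09650) and PDE334 (AT4G32260), the gene of the CFO-II subunit.

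The enzyme sits in the thylakoid membrane and makes ATP from the proton gradient that photosynthetic electron transport builds up. Its soluble head, CF1, is a ring of alternating α and β subunits around a central stalk. Its membrane part, CFO, holds a ring of identical c subunits that turns as protons pass through subunit a. The turning stalk drives the β subunits, which carry the catalytic sites, while a peripheral stalk keeps the head from turning along. Subunits are needed in fixed numbers that differ widely. In each complex there are 3 copies of α (atpA) and of β (atpB), 14 copies of c (atpH) and 1 copy each of γ (ATPC1), δ (ATPD), ε (atpE), a (atpI), b (atpF) and b' (PDE334). Ribosomes of the chloroplast and of the cytosol therefore have to supply one complex together.

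In Ribo-seq, a nuclease digests all RNA that is not covered by ribosomes, and the pieces left (ribosome-protected fragments, RPFs) are sequenced, so that reads over a coding sequence (CDS) reflect ribosomes on it. All seedlings were wild type. Lysates of 8-day seedlings, grown with 16 h of light and 8 h of dark, were treated with MNase at 75, 150 or 300 U or with RNase I at 62.5, 125 or 250 U. Lysates of 14-day seedlings, grown with 12 h of light and 12 h of dark, received RNase I at 400, 550 or 700 U, and the 700 U fragments were made into a library a second time with 19 in place of 15 PCR cycles. These libraries were not depleted of rRNA and held fragments of 20 to 50 nt. The other libraries came from 14-day seedlings at 600 U of RNase I, were depleted of rRNA and held fragments of 20 to 35 nt. They are depletion versions 1 and 2 (V1 and V2), and 1 library each from a ligation-based and a ligation-free kit. The protocols name sucrose in the medium of the 8-day seedlings only. Each condition was sequenced once, and the doses stand in for replicates. V1 and V2 were tested as 1 group, and so were the kit libraries. The spread in these groups thus holds the difference between depletion versions or between kits. Nothing says that the libraries of a group came from separate plants. The p-values therefore measure the spread between these libraries, which may be technical.

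The libraries held 2338819 to 11583740 counts over CDS. The members held 1192 to 64988 counts per library and gene, so that the 95% Poisson interval of a level was at most 5.72% of the level to each side, for counting error only. Levels are CPM, the counts of a gene scaled to a common total of CDS counts. Levels of different genes are compared only as CPM per kb of CDS, which is called the density here. Dividing it by the number of copies of the subunit in the complex gives the density per copy. The paper reports that fragment sizes differ between chloroplast and cytosolic ribosomes. Whether both kinds are recovered alike was not tested, so ratios across genomes are not ratios of synthesis rates.

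The chloroplast members lie in 2 gene clusters on the minus strand of the chloroplast genome (TAIR10). The coordinates, which leave out the stop codon, gave a CDS with a start codon and a following stop codon for all 9 members in the reference sequence. The larger cluster reads in the order rps2, atpI (14024-14770), atpH (13265-13507), atpF (11532-12798) and atpA (9941-11461). Between the coding sequences lie 242 nt from rps2 to atpI, 513 nt from atpI to atpH, 463 nt from atpH to atpF and 67 nt from atpF to atpA. The smaller cluster holds atpB (52663-54156) and atpE (52268-52663). ATPC1 (2350764-2351882, minus strand), ATPD (6100799-6101500, plus strand) and PDE334 (15573862-15574586, minus strand) are on chromosome 4.

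A pair of places in these genes bears on which reads could be counted, and their sequences are shown for that reason. At the junction of atpB and atpE, positions 52647-52676, the end of atpB with its stop codon and the start of atpE overlap by 4 bases, given in capitals. Reads over both CDS are assigned to neither gene by the counting. At the joint of the 2 exons of atpF, a read aligns over its whole length only if it is split over an intron of 715 nt. The sequence of the joint holds the last 15 bases of the exon at 12654-12798 and the first 15 of the exon at 11532-11938, the latter in capitals.
atpB-atpE junction: gtaaattgaagaaATGAccttaaatctttg
atpF exon junction: ttggaaagggagtgtTAAATGATTTATTAG

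Long perfect copies elsewhere in the genome were found for few of the members. A search for perfect matches of at least 28 nt outside the own locus found 2 for atpA, 1 for atpB and 1 for atpE, which cover 2.24%, 2.34% and 9.85% of their CDS. The other 6 members had none.

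In the 8-day seedlings, the density of the subunits spanned a wide range and was highest for the subunits with several copies. With RNase I, atpH stood at 13969, 13526 and 13455 CPM per kb from the lowest to the highest dose, and atpB at 3832, 3688 and 3837. The α gene atpA stood at 3202, 3037 and 2944 CPM per kb. The single-copy subunits all lay below these genes. Their highest density was that of atpF, at 2413, 2262 and 2173 CPM per kb, and their lowest group mean was that of ATPD, at 1056, 968 and 1051.

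**Figure D1:**
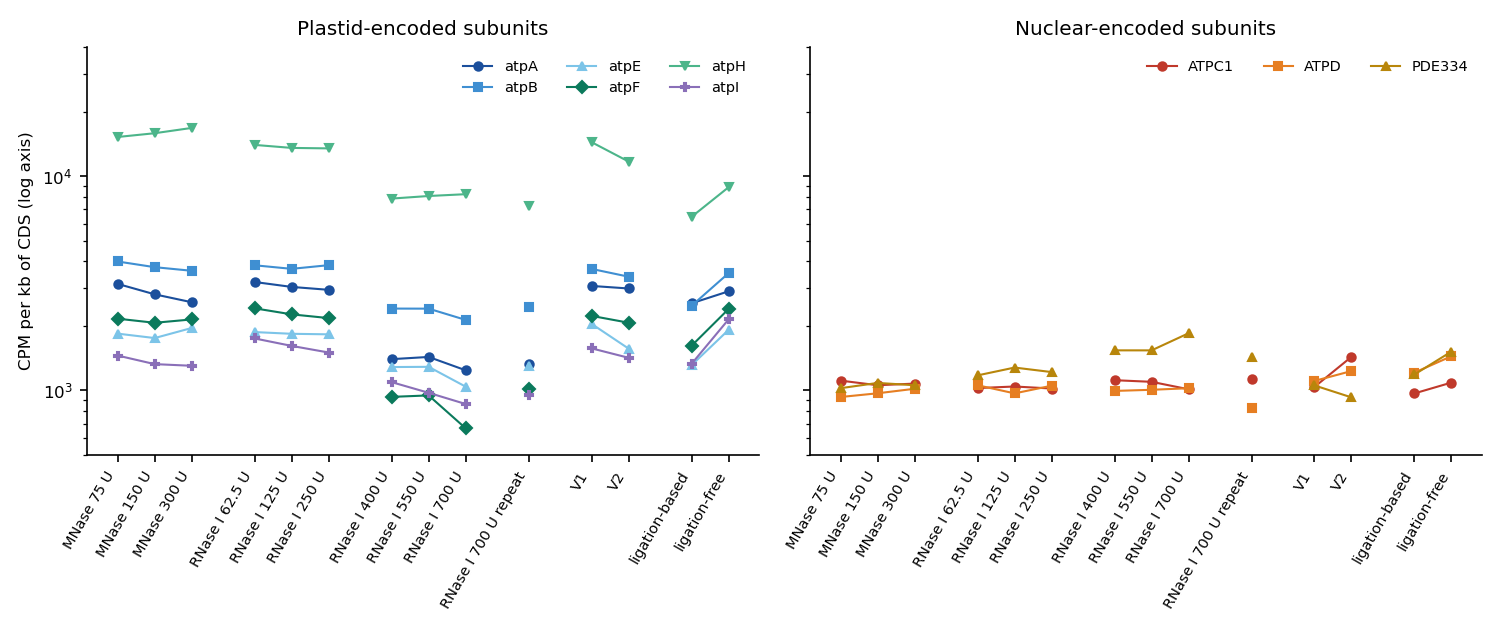
Density of the 9 members, in CPM per kb of CDS on a log axis, by library. Each point is 1 library, lines join the libraries of 1 group, the chloroplast-encoded members are on the left and the nuclear-encoded ones on the right. The atpH points lie above all others in every library, and the chloroplast-encoded members are lower in the undepleted 14-day libraries than in the 8-day libraries.

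Per copy, this range shrank. The highest density over the lowest was 13.6-, 14.0- and 13.2-fold per kb in the 3 RNase I libraries and 2.42-, 2.34- and 2.26-fold per copy. In decreasing order, the density per copy with RNase I was 2283 ± 122 CPM per kb for atpF (SD, n = 3 doses), 1843 ± 23.4 for atpE and 1619 ± 123 for atpI. It was 1262 ± 28.1 for atpB and 1222 ± 51.7 for PDE334, whose ranges over the doses overlapped. It was 1028 ± 11.7 for ATPC1, 1025 ± 49.5 for ATPD, 1020.3 ± 43.6 for atpA and 975 ± 19.9 for atpH. Each of these 4 overlapped with its neighbour in the order. The ranges over the doses of the single-copy γ and δ subunits, from the nuclear genome, overlapped with that of α. That of the rotor ring subunit c, with its 14 copies, overlapped with it too, though subunit c was below α in each of the 3 libraries. Subunits β and b' lay above these without overlap, and subunits b, ε and a, all chloroplast-encoded, lay higher still.

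Set against atpA in the same library, these ratios need no scaling between libraries. With RNase I, the ratio per copy was 0.956 ± 0.0223 (SD, n = 3 doses) for atpH, 1.01 ± 0.0431 for ATPC1, 1.01 ± 0.0591 for ATPD and 1.20 ± 0.0876 for PDE334. It was 1.24 ± 0.0571 for atpB, 1.59 ± 0.0534 for atpI, 1.81 ± 0.0541 for atpE and 2.24 ± 0.0236 for atpF. Over all 14 libraries, the median was 1.02 for atpH (0.543 to 1.42), 1.13 for ATPC1 (0.960 to 2.57), 1.21 for ATPD (0.890 to 2.47) and 1.25 for PDE334 (0.931 to 4.47). It was 1.29 for atpB (0.973 to 1.86), 1.58 for atpI (1.39 to 2.34), 1.93 for atpE (1.54 to 2.95) and 2.19 for atpF (1.61 to 2.49). For atpI, atpE and atpF the ratio was above 1 in each of the 14 libraries. The highest ratio over the lowest was 2.68 to 4.80 for the nuclear-encoded members and 1.55 to 2.62 for the chloroplast-encoded ones. As atpA is chloroplast-encoded, shifts common to that genome drop out for the chloroplast-encoded members only. The density itself, not set against atpA, varied 1.48- to 1.99-fold for the nuclear-encoded and 1.87- to 3.63-fold for the chloroplast-encoded members.

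**Figure D2:**
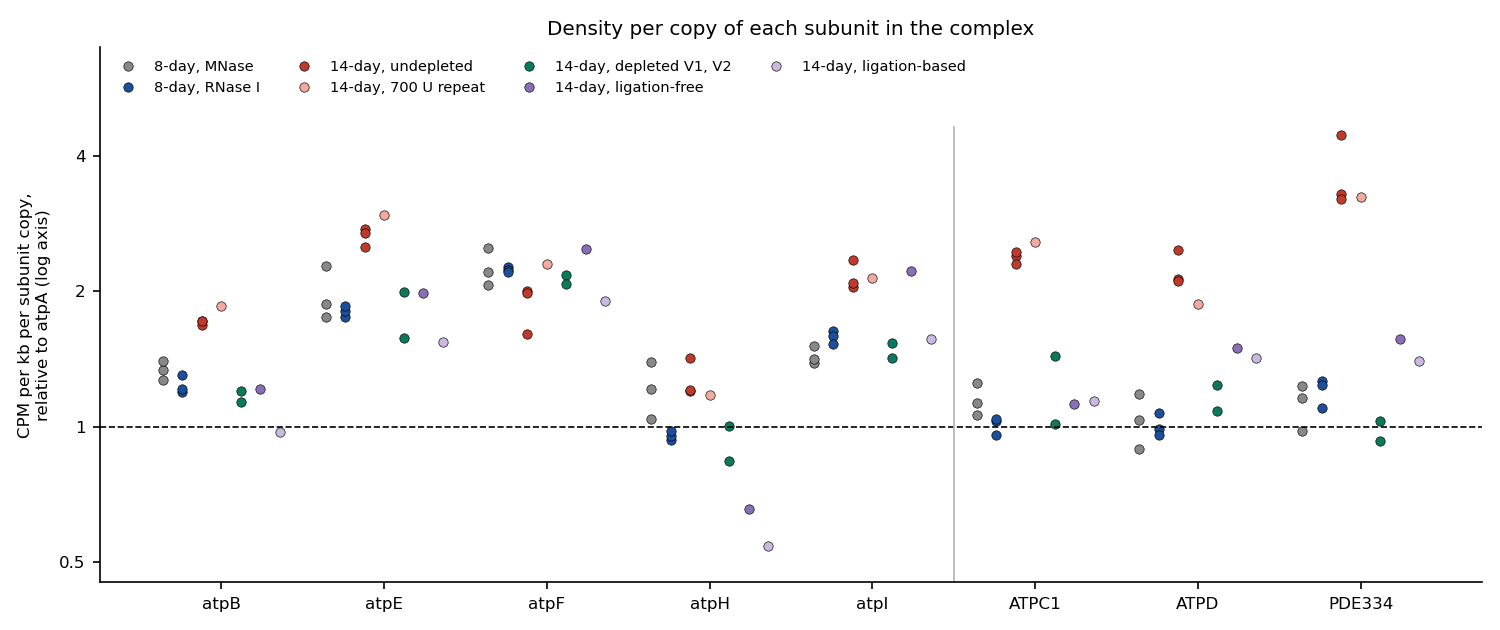
Density per copy of each subunit relative to atpA of the same library, on a log axis, with 1 point per library and colours for the groups. The dashed line marks the value of atpA, and the nuclear-encoded members stand right of the vertical line. At 400, 550 and 700 U ATPC1, ATPD and PDE334 lie between 2.11 and 4.47, while in the 8-day libraries they lie between 0.890 and 1.26.

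The β and ε genes were counted at nearly fixed proportions. The density of atpE over that of atpB was 0.461 to 0.554 in the 14 libraries. This ratio leaves out the reads over the shared junction shown above.

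Between the nucleases in 8-day seedlings, 1 of the 9 members was called higher and 2 were called lower, against 1.94% of all genes called. With MNase, the order of the densities per copy again began with atpF (2122 ± 49.4 CPM per kb, SD, n = 3 doses) and atpE (1848 ± 101), and ended with ATPD (972 ± 43.2) and atpA (947 ± 94.2), whose ranges overlapped. The subunit c gene atpH was higher with MNase than with RNase I. It stood at 3696, 3849 and 4074 CPM with 75, 150 and 300 U of MNase and at 3395, 3287 and 3270 CPM with RNase I from the lowest to the highest dose, without overlap. The log2 fold change was 0.25 (standard error 0.04, adjusted p = 8.1e-05 from edgeR).

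The proton channel gene atpI was lower with MNase. It stood at 1085, 989.7 and 972 CPM with MNase and 1304, 1204 and 1121 CPM with RNase I, a log2 fold change of -0.23 (standard error 0.05, edgeR adjusted p = 0.011). The peripheral stalk gene PDE334 stood at 672, 711 and 694 CPM with MNase and 771, 839 and 799 CPM with RNase I, a log2 fold change of -0.19 (standard error 0.05, edgeR adjusted p = 0.044). The groups did not overlap for either gene, which held for 17.1% of the 16738 genes tested. Of all these genes, 1.94% passed the threshold of 0.05, 1.3% as higher and 0.633% as lower. Of the other 79 chloroplast-encoded genes tested, 7 were higher and 12 lower. Of the 9 members, 1 was higher, 2 were lower and 6 did not pass. The latter had log2 fold changes from -0.08 for atpA to 0.09 for ATPC1.

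Of these calls, only that of atpH held with each library left out in turn. The call of PDE334 was lost without any 1 of 5 libraries (adjusted p = 0.070 to 0.43) and that of atpI without 62.5 U or 125 U of RNase I or 150 U of MNase (adjusted p = 0.097 to 0.23), and also in the fit on chloroplast genes alone (-0.20, adjusted p = 0.051). Without 75 U of MNase, atpA passed as lower (log2 fold change -0.17, adjusted p = 0.011). For scale, the 700 U library over its repeat, made from the same RPFs, gave log2 ratios of 0.18 for atpH and -0.13 for atpI. That of PDE334 was 0.37, larger in size than its fold change between the nucleases. The median size over all genes of that pair was 0.30. The part of library preparation in the calls between nucleases was not tested. The density of atpH over that of atpA was 4.85, 5.65 and 6.51 at 75, 150 and 300 U of MNase and 4.36, 4.45 and 4.57 at the RNase I doses in the same order, with 1 library per dose.

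The 14-day seedlings differed in more members. All 6 chloroplast-encoded members were lower in the undepleted 14-day libraries than in the 8-day RNase I libraries, by factors of 0.361 to 0.636, while the nuclear-encoded ATPC1 and ATPD did not pass the test and PDE334 was higher. Age, light cycle, medium and nuclease dose changed together and cannot be told apart. Of all 15460 genes tested, 25.1% were called lower and 25.3% higher, 50.4% in all.

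The members of the head fell unequally. For atpA, CPM were 4870.1, 4619 and 4477 in the 8-day libraries and 2126, 2177 and 1886 in the 14-day libraries, a log2 fold change of -1.21 (standard error 0.05, edgeR adjusted p = 5.4e-28). For atpB, CPM were 5725, 5510.3 and 5732 against 3596, 3592 and 3184, a log2 fold change of -0.74 (standard error 0.05). The groups lay far apart for both genes, and α fell more than β. The central stalk gene atpE stood at 740.3, 727 and 723 CPM against 509, 509.7 and 412, a log2 fold change of -0.65 (standard error 0.06).

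Of the membrane part, atpF, the peripheral stalk subunit b, fell most of all members. It stood at 1332, 1248 and 1199 CPM in the 8-day libraries and at 514, 522 and 367 CPM in the 14-day libraries (log2 fold change -1.47, standard error 0.07, edgeR adjusted p = 9.6e-26). The ring subunit gene atpH stood at 3395, 3287 and 3270 CPM against 1907, 1960.4 and 1999 (log2 fold change -0.80, standard error 0.05). The values of atpI were 1304, 1204 and 1121 CPM against 816, 727 and 645 (log2 fold change -0.77, standard error 0.06). The 8-day and 14-day libraries overlapped for none of the 6 genes, as for 56.6% of all genes, and the adjusted p from edgeR was at most 5.4e-13 for each of them. Along the larger cluster, atpI and atpH thus fell by 0.77 and 0.80 on the log2 scale, and atpF and atpA at its end by 1.47 and 1.21. Its first gene, rps2, stood at 226, 227 and 217 CPM per kb in the 8-day and 98.2, 88.2 and 65.6 in the 14-day libraries. The falls thus did not grow steadily from the first gene to the last.

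The nuclear-encoded subunits of the stalks took another course. ATPC1, the γ subunit of the central stalk, stood at 1146, 1166 and 1141 CPM in the 8-day libraries and 1247, 1226 and 1132 CPM in the 14-day libraries, which overlapped (log2 fold change 0.03, standard error 0.06, edgeR adjusted p = 0.71). ATPD, the δ subunit that joins head and peripheral stalk, stood at 741, 679 and 738 CPM against 697, 706 and 718 (log2 fold change -0.06, standard error 0.06, edgeR adjusted p = 0.44). PDE334 was at 771, 839 and 799 CPM against 1009, 1009 and 1213, without overlap (log2 fold change 0.39, standard error 0.06, edgeR adjusted p = 5.3e-07).

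The density per copy was thereby ordered anew. In the undepleted 14-day libraries, PDE334 stood first with 1639 ± 179 CPM per kb (SD, n = 3 doses), followed by atpE with 1204 ± 142, ATPC1 with 1074 ± 55.0 and ATPD with 1007 ± 14.7. Then came atpI with 976 ± 114, atpF with 848 ± 159, atpB with 771 ± 52.8, atpH with 575 ± 13.6 and atpA with 452 ± 34.0. From atpE to atpB, each neighbour overlapped with the next. Relative to atpA, ATPC1 was at 2.38 ± 0.0760, ATPD at 2.24 ± 0.205 and PDE334 at 3.66 ± 0.698, and none of these overlapped with its 8-day values. The median density per copy of the 3 nuclear-encoded members was set over that of the 6 chloroplast-encoded ones. This ratio was 0.699 to 0.756 with RNase I in 8-day seedlings and 1.25 to 1.49 in the undepleted 14-day libraries. The part of fragment recovery, which may differ by genome, was not tested.

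The fall of the chloroplast-encoded members went with that of their genome. Of the other 78 chloroplast-encoded genes tested, 74 were lower and 2 higher, with a median log2 fold change of -1.09, while the median over all genes was 0.01. The share of CDS counts from chloroplast genes was 20.5 to 21.5% in the 8-day RNase I and 13.6 to 15.2% in the 14-day libraries. Of the chloroplast counts, psbA, the gene of the photosystem II core protein D1, took 15.5 to 16.0% in the former and 34.7 to 35.3% in the latter. The 6 members took 7.99 to 8.08% and 6.23 to 6.37%.

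A fit on chloroplast genes alone turned the direction of 4 members. It sets each gene against the bulk of the chloroplast genes and not against their summed counts, of which psbA took a larger share at 14 days. There atpE (log2 fold change 0.43), atpB (0.34), atpI (0.31) and atpH (0.29) were higher, atpF was lower (-0.39) and atpA did not pass (-0.13, edgeR adjusted p = 0.24). As a share of the summed chloroplast counts, the 4 genes that were higher in this fit were lower at 14 days. The mean share went from 0.349 to 0.326% for atpE, 2.70 to 2.37% for atpB, 0.577 to 0.500% for atpI and 1.58 to 1.35% for atpH. The plot of fold changes shows both fits. The nuclear-encoded members kept their calls in a fit on nuclear genes alone (ATPC1 0.02, ATPD -0.07, PDE334 0.38).

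**Figure D3:**
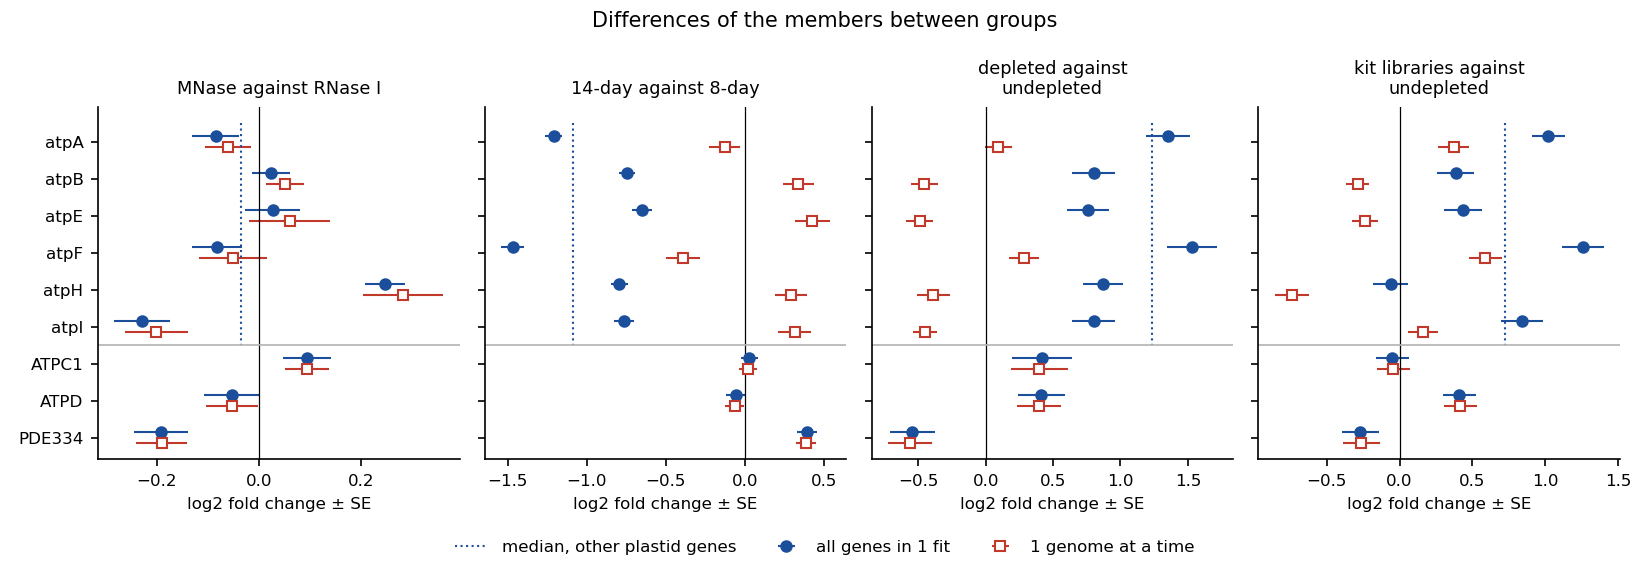
Log2 fold changes of the members with standard errors (bars) in the 4 comparisons, from the fit of all genes (filled circles) and from fits of 1 genome at a time (open squares). The dotted line is the median of the other chloroplast-encoded genes in the fit of all genes. In 14-day against 8-day seedlings atpF (-1.47) and atpA (-1.21) lie left of that line (-1.09) and the other 4 chloroplast-encoded members right of it.

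Other lists moved in the same comparison. The chloroplast-encoded subunits of the cytochrome b6f complex, which passes electrons between the photosystems, were lower in 6 of 6 cases (median log2 fold change -0.94). The 13 genes of the mitochondrial ATP synthase, from the nuclear and mitochondrial genomes, were all lower (median -0.69). Markers of sugar starvation were higher for 4 of 4 genes, with summed levels of 321 to 335 CPM in the 8-day RNase I and 1020.5 to 1080.3 CPM in the 14-day libraries. Root markers were lower for 6 of the 7 tested, at 1778 to 1841 CPM against 822 to 935 CPM in sum, and of all 8 only COBL9 and NRT2.1 were at 0 in any library. Green-tissue markers were higher for 4 of 4 genes, at 30189 to 32046 CPM against 40033 to 43482 CPM. Of these 4, 3 were also higher with MNase than with RNase I in 8-day seedlings. There, 0 of 7 root and 0 of 4 sugar-starvation markers passed. The part of tissue makeup or sugar supply in the members' values was not tested, and fewer chloroplasts and fewer RPFs per chloroplast cannot be told apart in whole seedlings.

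In the depleted 14-day libraries the chloroplast-encoded members stood higher again. Against the undepleted 14-day libraries, all 6 were higher, PDE334 was lower and ATPC1 and ATPD did not pass. These undepleted libraries are those that also stood against the 8-day libraries, so the comparisons are not independent. Depletion, fragment length, dose and any difference in plant material cannot be told apart. The test called 22.6% of 15532 genes, 10.9% as higher and 11.7% as lower.

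Subunits b and α had the largest fold changes of the members. The level of atpF was 1228 CPM in V1 and 1141 in V2, against 514, 522 and 367 in the undepleted libraries (log2 fold change 1.53, standard error 0.18, edgeR adjusted p = 0.0015). That of atpA was 4669 and 4543 CPM against 2126, 2177 and 1886 (1.35, standard error 0.16, adjusted p = 0.0016). These calls held with each library left out. The head gene atpB stood at 5507 and 5065 CPM in V1 and V2 (log2 fold change 0.80), the ring gene atpH at 3496 and 2839 (0.87), the proton channel gene atpI at 1173 and 1059.5 (0.80), and the stalk gene atpE at 809 and 619.9 (0.76). No depleted library overlapped with an undepleted one for any of these 6 genes, which was so for 53.1% of all genes. Of the 4 calls last named, each was lost without 400 U or 550 U, and all but that of atpH without 700 U (adjusted p = 0.054 to 0.087).

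For the nuclear-encoded members, V1 and V2 differed from one another. ATPC1 stood at 1161 CPM in V1 and 1604 in V2, ATPD at 777 and 863, and PDE334 at 692 and 609, against 1009, 1009 and 1213 CPM of PDE334 in the undepleted libraries. Its log2 fold change was -0.55 (standard error 0.17, edgeR adjusted p = 0.047), a call that was lost without any of the 3 undepleted libraries (adjusted p = 0.14 to 0.15). The log2 fold changes of ATPC1 and ATPD were 0.42 (adjusted p = 0.20) and 0.41 (adjusted p = 0.12). With V2 as the only depleted library they were at 0.74 and 0.61, with V2 assumed to vary like the undepleted libraries (edgeR adjusted p = 2.5e-08 and 1.9e-06).

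Other chloroplast genes were higher in 74 of 78 cases, with a median log2 fold change of 1.24. In the fit on chloroplast genes alone, atpB (-0.46), atpE (-0.49), atpI (-0.45) and atpH (-0.39) were accordingly lower (adjusted p at most 0.047) and atpA (0.09) and atpF (0.28) did not pass. The share of psbA in the chloroplast counts was 15.0% in V1 and 21.1% in V2. Of the sugar-starvation markers 3 of 4 were lower. The sum of the 4 was 294 CPM in V1 and 84.2 in V2, against 1020.5 to 1080.3 CPM in the undepleted libraries. Root markers stood at 1934 CPM in V1 and 1182 in V2 in sum, against 822 to 935 CPM. Of the 5 tested 1, PYK10, was called higher (log2 fold change 0.95, edgeR adjusted p = 0.0055). Of the green-tissue markers 0 of 4 passed, at 28662 CPM in V1 and 38258 in V2, against 40033 to 43482 CPM. In the 8-day RNase I libraries these sums were 321 to 335, 1778 to 1841 and 30189 to 32046 CPM, closer to V1 than to V2. The part of these markers' tissues or sugar supply in the members' values was not tested.

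Between V1 and V2, 1 library each, the chloroplast-encoded members all had somewhat higher CPM in V1, as the median gene had. Their log2 ratios of V1 over V2 went from 0.04 (95% counting interval 0.02 to 0.06) for atpA to 0.38 (0.32 to 0.45) for atpE. The median was 0.13, against 0.28 over 14682 genes and 0.25 over 78 other chloroplast genes. Only atpE and atpH (0.30) lay above the median of all genes. These ratios leave out the TMM factors, 1.03 for V1 and 0.833 for V2. ATPC1 was lower in V1, at -0.47 (-0.51 to -0.42). Per copy and relative to atpA, the values of V1 were 1.00 for atpH, 1.01 for ATPC1, 1.08 for ATPD and 1.03 for PDE334. Those of V2 were 0.838, 1.44, 1.24 and 0.931.

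The kit libraries also came from depleted 14-day material. Against the same undepleted libraries, 5 chloroplast-encoded members and ATPD were higher and none was lower. The spread within the kit group holds the difference between the kits. The test called 27.9% of 14823 genes, 13.4% as higher and 14.5% as lower. Both kit libraries lay above all undepleted ones for each of these 6 members, and groups did not overlap for 51.2% of all genes. Kit, depletion, fragment length, dose and any difference in plant material cannot be told apart. Of the other chloroplast-encoded genes, 58 of 78 were higher and 2 lower, with a median log2 fold change of 0.73. Sugar-starvation markers were lower for 4 of 4 genes, at 482 to 499 CPM in sum against 1020.5 to 1080.3 CPM, and green-tissue markers for 2 of 4, at 30357 to 35159 CPM against 40033 to 43482 CPM. Of the root markers 0 of 5 tested passed, at 1032 to 1051 CPM against 822 to 935 CPM in sum. The part of these markers' tissues or sugar supply in the members' values was not tested. The level of atpA was 3872 CPM in the ligation-based and 4406 in the ligation-free library (log2 fold change 1.02, standard error 0.11, edgeR adjusted p = 2.1e-07). That of atpF was 890.3 and 1322 CPM (1.25, adjusted p = 4.0e-07) and that of atpI 992 and 1600 CPM (0.84, adjusted p = 7.7e-05). In the fit on chloroplast genes alone, atpI did not pass (0.16, adjusted p = 0.27).

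Smaller differences rested on single libraries. The log2 fold changes of atpB (0.38, edgeR adjusted p = 0.023) and atpE (0.43, adjusted p = 0.016) lost their calls without the ligation-free library, at 0.16 and 0.19, where the lone ligation-based library is assumed to vary like the undepleted ones. The call of atpB was also lost without 400 U, 550 U or 700 U, and that of atpE without 550 U or 700 U. ATPD stood at 849 and 1013 CPM against 697, 706 and 718 (0.41, adjusted p = 0.0082), and its call was lost without 400 U or 550 U (adjusted p = 0.076 and 0.078).

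The ring gene atpH stood at 1567 CPM in the ligation-based and 2153 in the ligation-free library, on either side of the 1907, 1960.4 and 1999 CPM of the undepleted libraries (log2 fold change -0.06, standard error 0.12, edgeR adjusted p = 0.75). In the fit on chloroplast genes alone it was lower (-0.74, adjusted p = 0.0059). Without the ligation-free library it was at -0.26 (adjusted p = 0.033), where the ligation-based library alone is assumed to vary like the undepleted group. Its density per copy relative to atpA was 0.543 and 0.656, the lowest of all 14 libraries. ATPC1 (-0.05, adjusted p = 0.79) and PDE334 (-0.27, adjusted p = 0.12) did not pass, and PDE334 was at -0.41 without the ligation-free library (adjusted p = 0.0053 under the same assumption).

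Between the kits, all 9 members had higher CPM in the ligation-free library. The log2 ratios ranged from 0.17 (95% counting interval 0.10 to 0.24) for ATPC1 and 0.19 (0.15 to 0.22) for atpA to 0.69 (0.62 to 0.76) for atpI. The median was 0.53 over the 6 chloroplast-encoded members and 0.51 over 78 other chloroplast genes, against 0.06 over 13019 genes. As there is 1 library per kit, these ratios compare libraries and not kits.

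**Figure D4:**
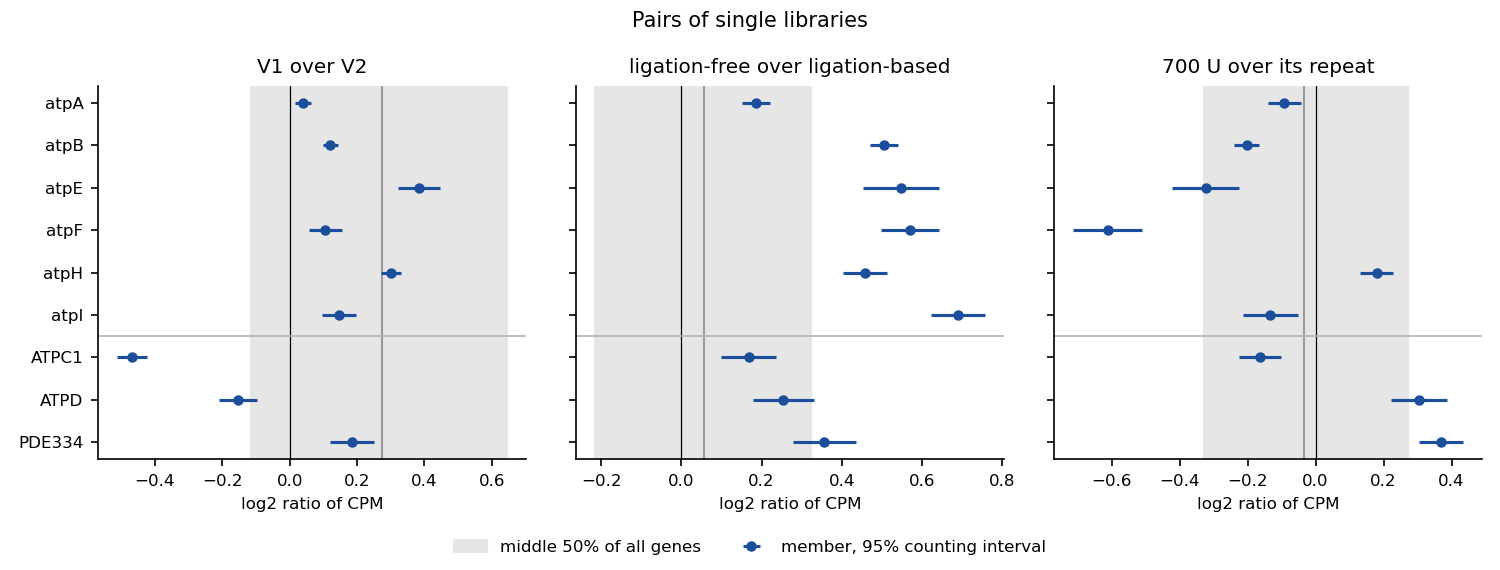
Log2 ratios of CPM of the members in 3 pairs of single libraries, with 95% counting intervals (bars). The grey band spans the middle 50% of all genes (those that have 10 counts or more in each of the pair) and the grey line is their median. In the ligation-free library all 9 members lie right of 0, from 0.17 for ATPC1 to 0.69 for atpI.

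The 700 U library and its repeat, made from the same RPFs, differed in PCR cycles and in their levels of most members. The log2 ratio was -0.61 (95% counting interval -0.71 to -0.51) for atpF, at 1201 counts against 2315, and 0.37 (0.30 to 0.43) for PDE334. It lay between -0.32 for atpE and 0.31 for ATPD for the other members, and none of the 9 intervals held 0. The median size of a log2 ratio was 0.30 over 13680 genes, which include genes of far fewer counts. Per copy and relative to atpA, atpF was at 1.61 in the 700 U library and 2.30 in its repeat, PDE334 at 4.47 and 3.25, ATPD at 2.47 and 1.88 and atpH at 1.42 and 1.18. In the repeat library, atpF was at 560.5 CPM and PDE334 at 939.7 CPM, again outside the range of the 8-day RNase I libraries.

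Arabidopsis has another γ gene, ATPC2 (AT1G15700), which had few counts. It held 16 to 97 counts per library, and the density of ATPC1 was 85.2 to 338 times that of ATPC2. In 14-day against 8-day seedlings ATPC2 was called higher (log2 fold change 0.84, standard error 0.27, edgeR adjusted p = 0.0078), at 8.39, 12.4 and 13.7 CPM against 6.54, 5.75 and 6.68. The repeat of the 700 U library held 3.87 CPM, below all of these.

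The gene upstream of atpI in the larger cluster, rps2 of the chloroplast ribosome, was far below it. Its density was 65.6 to 231 CPM per kb, and that of atpI was 6.22 to 16.8 times as high.

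A list of 9 nuclear genes was drawn up for factors that make or assemble the complex, of which 5 are not named as such in the reference annotation used. None of the 9 passed in MNase against RNase I or in the kit libraries. In 14-day against 8-day seedlings, 2 were higher and 5 lower. The assembly factor CGL160, which acts on the membrane part, was at 63.2, 53.1 and 61.1 CPM in the 8-day and 45.9, 52.2 and 51.6 CPM in the 14-day libraries (log2 fold change -0.28, edgeR adjusted p = 0.036). SVR7, annotated as needed for the accumulation and translation of ATP synthase subunits, was at 114, 117 and 119 CPM against 71.5, 63.7 and 66.0 (-0.83, adjusted p = 1.5e-11). CRS1, known in maize as a splicing factor of the atpF intron, was higher (0.54, adjusted p = 0.026). In depleted against undepleted libraries 4 were higher and 1 lower, with SVR7 at 0.92 (adjusted p = 0.0053) and CRS1 at -0.91 (adjusted p = 0.029).

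The genes most like atpA over the 14 libraries, by Pearson correlation of log2(CPM + 1) among 9858 genes with a mean of at least 50 counts, were chloroplast-encoded, namely ndhJ (r = 0.995), clpP (0.988) and ndhA (0.986). Those most like ATPC1 were nuclear, namely FBP (0.887), AT3G03770 (0.862) and AT4G12830 (0.861). Between members, r with atpA was 0.975 for atpF, 0.909 for atpB, 0.884 for atpI, 0.871 for atpE, 0.705 for atpH, 0.403 for ATPD, 0.0132 for ATPC1 and -0.776 for PDE334. These values describe 14 libraries that share plant material and steps within each experiment, and they carry no test.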

How the data were processed

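Counts of RPF reads over the CDS of each gene were used as deposited by the authors, from 14 Arabidopsis libraries in 2 tables. Per the labels and methods, the authors trimmed reads with cutadapt, removed those that STAR aligned to non-coding RNA, aligned the rest to TAIR10 with the Ensembl Plants annotation 45, and counted sense reads over CDS with featureCounts, with 1 alignment kept for a read with several. Reads over 2 genes were assigned to neither. For these tools, versions are not given in the sources used. The deposited counts were whole numbers and not normalized. A low total, of 2338819 counts at the least, limits the precision most for genes with few counts. Tobacco libraries and totals of reads were not analysed here.

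Groups were compared with edgeR 4.0.16 (quasi-likelihood test, TMM, R 4.3.3, limma 3.58.1) on genes with at least 10 counts in as many libraries as the smaller group holds, adjusted by Benjamini-Hochberg over all genes tested, with a threshold of 0.05. DESeq2 1.42.0, RLE factors, no filter, fits of 1 genome at a time, the 700 U library summed with its repeat and leaving out each library were alternatives. CPM, densities and exact binomial and Poisson intervals came from Python 3.11.15, numpy 2.4.6, pandas 2.3.3 and scipy 1.17.1, plots from matplotlib 3.10.9 and matches of 28 nt from blastn 2.17.0 on the RefSeq assembly TAIR10.1, whose CDS coordinates equal those of the files for the 9 members. The test was checked on simulated data. All members, the other γ gene and 3 genes each most like atpA and ATPC1 are named, and of the biogenesis list only CGL160, SVR7 and CRS1, by annotation or role. The members and lists were chosen with earlier results of these data known. The 2 tables hold raw counts of the same genes, and the kit libraries come from the smaller table.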

Additional observations from a re-analysis of the deposited data

How the results depend on the processing

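In 14-day against 8-day seedlings, the members called in the fit of all genes kept direction and call under RLE factors, DESeq2, no filter, the summed 700 U libraries and each library left out. ATPC1 ranged from -0.0137 to 0.0602 with a library left out, and ATPD passed with the 700 U libraries summed (log2 fold change -0.12, adjusted p = 0.037). Fits of 1 genome at a time reversed 4 members in that comparison (atpB 0.34, atpE 0.43, atpH 0.29, atpI 0.31). They reversed 4 in depleted against undepleted libraries (atpB -0.46, atpE -0.49, atpH -0.39, atpI -0.45) and 2 in the kit libraries (atpB -0.29, atpE -0.24). These fits set each chloroplast gene against the bulk of the chloroplast genes. With a library left out, MNase against RNase I gave -0.0231 to 0.0604 for atpB and -0.0105 to 0.0680 for atpE, and the kit libraries gave -0.0883 to 0.00625 for ATPC1 and -0.26 to 0.13 for atpH. The genes called ranged from 131 to 403 (of 324 with all libraries) for MNase, from 6605 to 7000 (7796) for 14-day, from 1120 to 6080 (3506) for depleted and from 2916 to 4159 (4131) for the kit libraries. The 131 came without 62.5 U, the 6605 without 250 U, the 1120 without 700 U, the 2916 without 550 U and the 6080 without V1, where the lone V2 is assumed to vary like the undepleted group. DESeq2 called 2546 genes in the kit libraries. Set against atpB in place of atpA, the median density per copy moved to 1.74 for atpF, 0.766 for atpH and 1.24 for atpI, and taking 30 nt off the lengths moved none beyond its spread between libraries. No paired analysis was possible because the libraries of a group differ by dose, depletion version or kit. None of these pairs libraries between the groups compared. The cause of these shifts was not tested further.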
